A study of Mus musculus with 2 samples.

Results

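A set of 8 genes known for marking, keeping or opposing a naive-like or stem-like state in T cells was followed through γδ T cells of the uninfected mouse lung. These were Tcf7, Lef1, Id3, Id2, Satb1, Bach2, Zeb1 and Dapl1, taken by their symbols, 8 of the 32285 genes listed for each library. Single cells were sorted from mice of 5 to 7 weeks of age and sequenced as 2 droplet libraries, 1 per group. The library labelled WT held Vγ1-negative γδ T cells of the strain C57BL/6NCrl, with no engineered allele named. The library labelled KO held Vγ1-positive γδ T cells of the strain B6.Cg-Tcrgtm1lku(B6.Vg4-/-Vg6-/-), in which the Vγ4 and Vγ6 chains are named as lacking. Genotype and sorted subset thus changed together and cannot be told apart, and the sources used here do not give the number of mice behind each library. With 1 library per group there was no replicate error and no test of one library against the other, so all intervals below cover counting error only.

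T cell factor 1 (encoded by Tcf7) and LEF1 (Lef1) are DNA-binding partners of β-catenin and bind related sequences in T cell genes. Both are high in naive and central memory T cells and lower in terminal effector cells. Id2 and Id3 are inhibitors that hold E proteins away from DNA, and Id3 is induced by T cell receptor signals. Satb1 organises chromatin in thymocytes, Bach2 is a repressor that restrains effector genes, Zeb1 is a zinc finger repressor, and Dapl1 is a small gene often listed among transcripts of naive or memory-like T cells. In γδ T cells, subsets that make IL-17 differ from those that make interferon-γ in receptor chain, surface genes and transcription factors.

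All 8 genes are protein-coding. On the GRCm38 build, Tcf7 (ENSMUSG00000000782) is at chr11:52252371-52283014 on the minus strand and Lef1 (ENSMUSG00000027985) at chr3:131110471-131224356 on the plus strand. Id3 (ENSMUSG00000007872) is at chr4:136143497-136145755 and Bach2 (ENSMUSG00000040270) at chr4:32238804-32586108, both on the plus strand. Id2 (ENSMUSG00000020644) is at chr12:25093799-25097140 and Satb1 (ENSMUSG00000023927) at chr17:51736187-51833290, both on the minus strand. Dapl1 (ENSMUSG00000026989) is at chr2:59484653-59505020 on the plus strand.

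Tcf7, Lef1, Id3, Satb1, Bach2 and Dapl1 were each lower in the same cells, as given below. Of these, Lef1, Bach2 and Dapl1 are shown with the 250 bases before an annotated start of each, as RefSeq gives them on GRCm38. RefSeq windows were found for 7 of the 8 genes, 15 windows in all, of which 5 were outside every GENCODE exon. The Dapl1 window, at chr2:59484403-59484652, ends just before the gene. The one shown for Lef1, at chr3:131156044-131156293, and the one for Bach2, at chr4:32417185-32417434, precede starts inside these genes and lie outside every exon. Capitals mark the T cell factor and LEF core motif (CTTTGA or CTTTGT on either strand) and the E-box CANNTG, which reads alike on both strands. The core motif was in 27.6% and the E-box in 66.2% of all 32851 windows of this length.
Lef1: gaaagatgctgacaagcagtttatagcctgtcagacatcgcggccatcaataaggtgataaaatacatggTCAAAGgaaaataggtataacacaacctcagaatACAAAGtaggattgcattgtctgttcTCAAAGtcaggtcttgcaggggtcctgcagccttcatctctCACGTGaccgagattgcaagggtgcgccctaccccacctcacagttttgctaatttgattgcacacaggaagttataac
Bach2: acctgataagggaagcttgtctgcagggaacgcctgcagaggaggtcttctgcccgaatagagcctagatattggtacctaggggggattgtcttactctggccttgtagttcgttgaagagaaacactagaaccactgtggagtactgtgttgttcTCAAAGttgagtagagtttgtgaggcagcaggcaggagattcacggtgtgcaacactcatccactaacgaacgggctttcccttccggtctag
Dapl1: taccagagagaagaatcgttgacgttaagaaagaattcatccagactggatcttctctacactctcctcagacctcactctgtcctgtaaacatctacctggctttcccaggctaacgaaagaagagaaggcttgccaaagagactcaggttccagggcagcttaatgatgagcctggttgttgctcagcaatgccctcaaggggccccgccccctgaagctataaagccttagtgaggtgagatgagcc
The Lef1 window shown held 3 core motifs and 1 E-box, that of Bach2 held 1 core motif, and that of Dapl1 held neither. The Lef1 window was chosen for its matches, and the other 3 windows of Lef1 held 0 core motifs, as did both windows of Tcf7. The Satb1 windows at chr17:51812185-51812434 and chr17:51812055-51812304, which overlap each other and a Satb1 exon, held 1 core motif each. These matches describe the letters only and are no evidence of binding.

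The filter of the study's methods left 2505 of 2520 barcodes in the WT library and 6634 of 6688 in the library labelled KO. Cells with a UMI (a counted molecule) of Cd3e, Cd3g, Cd3d or Trdc and fewer than 3 UMIs of B cell or of myeloid markers were taken as T cells. These were 2109 WT cells with a median of 3333 UMIs and 6142 KO cells with a median of 3528. The files shared 23 barcodes. Tcrg-V6 fitted the KO label with 0 UMIs in 6634 cells, which allows a share of up to 0.0452%, against 30.1% of WT cells. Tcrg-V1 fitted the KO label, with a UMI in 43.4% of cells of that library. It was lower but not absent in the WT library labelled Vγ1-negative, at 7.82% of cells. Tcrg-V4 was likewise lower but not absent where its chain is named as lacking, with a UMI in 14.9% of KO and 21.4% of WT cells. The sources used here do not say which part of that gene the allele removes. A Cd3e UMI was in 83.7% of WT and 83.9% of KO T cells at 2000 UMIs per cell, and a Trdc UMI in 28.4% and 29.3%. The T cell rule used both genes, so their presence is no separate check. The 4 αβ T cell markers summed to 899.7 UMIs per 1000000 (CPM) in WT and 1156 in KO T cells. Of these, Cd4 was at 2.10 and 3.09 CPM and Trac at 29.5 and 29.1, and the rest was Trbc1 and Trbc2.

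T cells were grouped by UMIs of 3 genes. Tmem176b, a membrane protein gene known in IL-17-type γδ T cells, was the only one of them seen in 997 WT cells (47.3%) and 1172 KO cells (19.1%). Ly6c2, a surface gene of memory-like T cells, was the only one in 350 WT (16.6%) and 1206 KO cells (19.6%). Cd8b1, the β chain of CD8, was the only one in 669 KO cells (10.9%) but in just 48 WT cells (2.28%), under the 50 cells required for a level. None of them was seen in 652 WT (30.9%) and 2712 KO cells (44.2%), called unmarked here, and the rest held 2 or more. Tmem176b only cells were deeper than unmarked cells, with medians of 3407 and 2842 UMIs in WT and 4099 and 3264 in the library labelled KO. Levels below are the summed UMIs of a gene over a group, divided by all UMIs of that group (CPM). Since UMI counts were not scaled to gene length, levels are compared between groups and not between genes.

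Tcf7 and Lef1 were lowest in Tmem176b only cells of both libraries. Tcf7 was at 79.8 CPM (95% Poisson interval 70.9 to 89.6) in WT Tmem176b only cells, 262 in Ly6c2 only cells and 324 in unmarked cells. Its level in the library labelled KO was 186 (174 to 198) in Tmem176b only cells, 342 in Ly6c2 only, 471 in unmarked and 528 in Cd8b1 only cells. The Tmem176b only level of the library labelled KO thus lay below that of every group of either library that was not defined by Tmem176b alone. Lef1 was at 81.8 CPM (72.7 to 91.7) in WT Tmem176b only cells, 410.0 in Ly6c2 only and 491 in unmarked cells. KO values were 157 (146 to 168), 618 and 726, with 715 in Cd8b1 only cells. Cells holding Tmem176b with Ly6c2 or Cd8b1 UMIs (188 KO cells) were in between, with 306 CPM of Tcf7 and 418 of Lef1.

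The same order appeared in the share of cells with at least 1 UMI after every cell was thinned to 2000 UMIs. A Tcf7 UMI was found in 14.0% of WT Tmem176b only cells (exact 95% interval 11.8 to 16.4) and 34.8% of unmarked cells (30.7 to 39.1). The library labelled KO had shares of 23.1% (20.6 to 25.7) and 52.0% (49.9 to 54.1). A Lef1 UMI was found in 11.5% and 45.1% of the WT groups, and in 18.2% and 67.6% of those labelled KO. Without thinning the Tcf7 shares were 19.9% and 43.3% in WT, and 37.9% and 64.0% in the library labelled KO. As a reference for free RNA, 53 WT and 29 KO cells had B cell or myeloid UMIs and no T cell marker UMI, with median depths of 2775 and 2072 UMIs. After thinning, 0 of 38 such WT cells and 0 of 15 such KO cells held a Tcf7 or Lef1 UMI, which allows shares of up to 7.89% and 20.0%. Tcf7 had 0 UMIs in them before thinning too, for an upper bound of 20.1 CPM in WT and 47.9 in the library labelled KO. Lef1 had 3 UMIs in each, at 16.3 CPM (3.37 to 47.7) and 38.9 (8.03 to 114). The Lef1 share of 18.2% in KO Tmem176b only cells lies under the 20.0% limit, while their Lef1 level of 157 CPM lies above the reference interval.

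**Figure D1:**
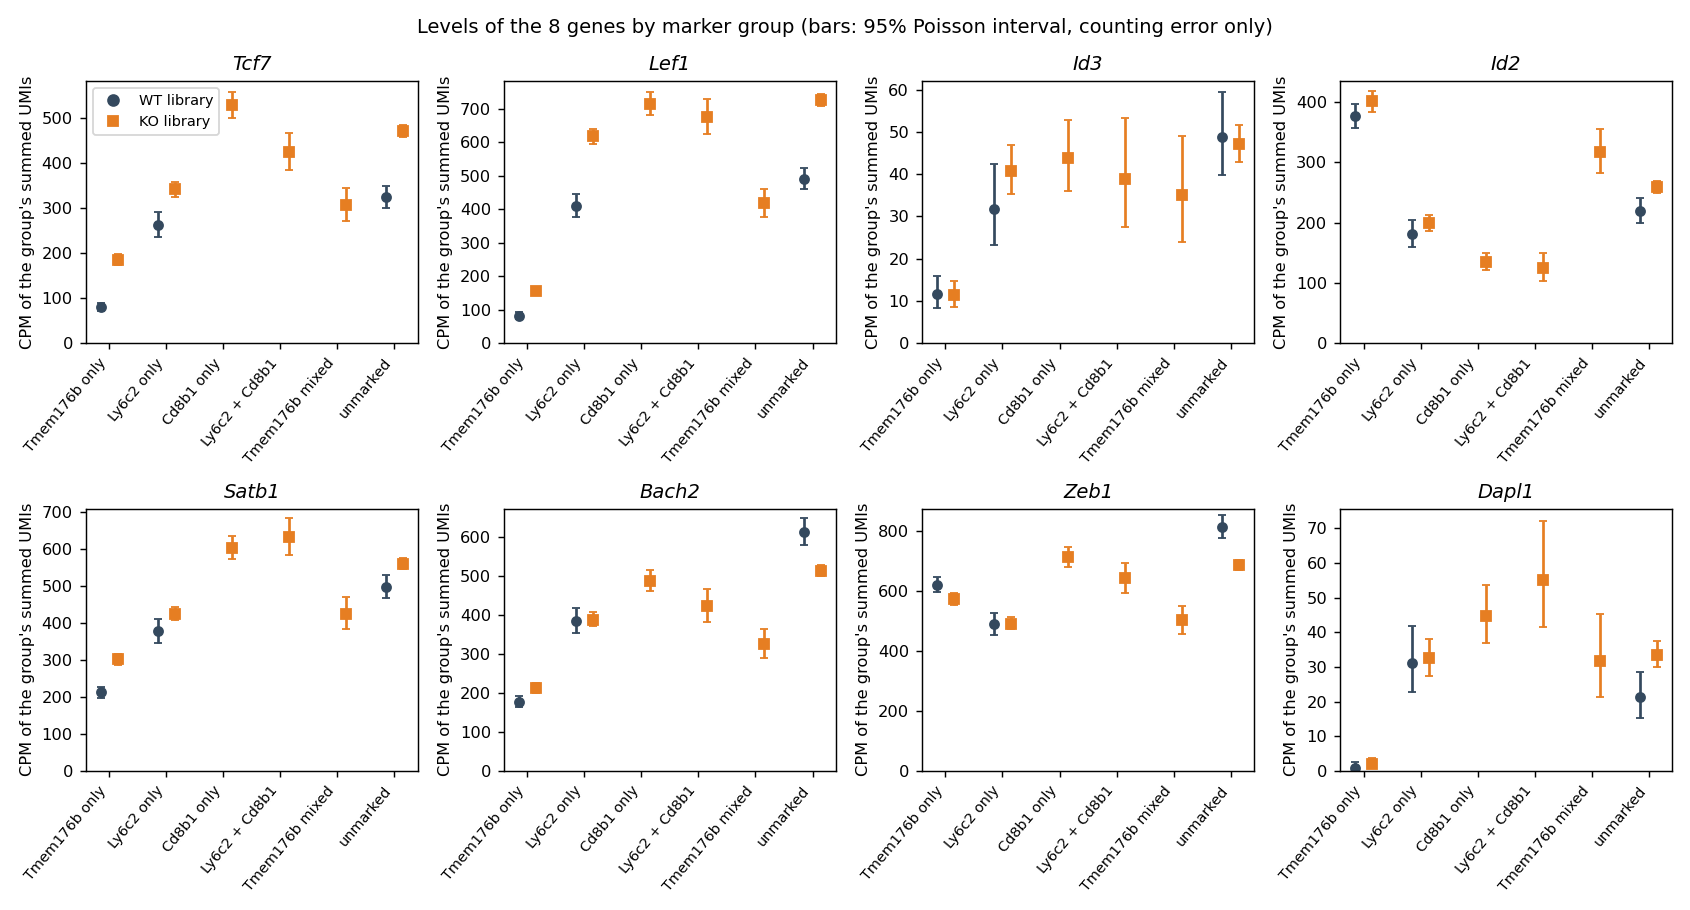
Level of each of the 8 genes (y axis, CPM of summed UMIs) in each marker group of T cells with at least 50 cells (x axis), with circles for the WT library, squares for the library labelled KO and bars for 95% Poisson intervals. Tmem176b only cells were the lowest group for Tcf7 (79.8 and 186 CPM) and Lef1 (81.8 and 157 CPM) in each library, while Id2 was highest there (376 and 402 CPM).

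Of the Id pair, Id3 went with Tcf7 and Lef1 and Id2 went the other way. Id3 was at 11.7 CPM (8.42 to 15.8) in WT Tmem176b only cells and 48.9 (39.7 to 59.5) in unmarked cells, and at 11.4 and 47.2 in the library labelled KO. Id2 was at 376 CPM (357 to 397) in WT Tmem176b only cells and 219 (199 to 240.5) in unmarked cells, and at 402 and 259 in the library labelled KO. Its lowest levels were in cells with Cd8b1 UMIs, at 135 CPM (121 to 150.1) in Cd8b1 only cells and 125 in cells with both Ly6c2 and Cd8b1 UMIs. Id3 was sparse, with a UMI in 1.79% to 7.79% of thinned cells over the marker groups. The B cell or myeloid reference cells held Id3 at 190.4 and 298 CPM, above every T cell marker group. They therefore give no floor for Id3.

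Satb1 and Bach2 were lower in Tmem176b only cells, Zeb1 hardly differed and Dapl1 was nearly absent there. Satb1 was at 212 CPM in WT Tmem176b only and 499 in unmarked cells, and at 302 and 561 in the library labelled KO. Bach2 was at 177 and 613 CPM in these WT groups, and at 212 and 513 in the library labelled KO. The reference cells held Bach2 at 120 CPM (75.0 to 181) and 182 (99.3 to 305), so that their intervals take in the Tmem176b only levels. Whether that was Bach2 RNA of their own was not tested, so they give no floor for Bach2 either. Zeb1 (ENSMUSG00000024238, at chr18:5591860-5775467 on the plus strand) stayed between 488 and 812 CPM over the 9 marker groups, a 1.66-fold range, with its lowest values in the Ly6c2 only cells of both libraries (488 and 490.4). Dapl1 had 3 UMIs in 997 WT Tmem176b only cells and 10 in the 1172 KO ones (0.835 and 1.96 CPM), against 21.2 and 33.6 CPM in unmarked cells. Its highest value was 55.2 CPM (41.5 to 72.1) in KO cells with Ly6c2 and Cd8b1 UMIs.

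Expressed as log2 CPM ratios of Tmem176b only over unmarked cells, Lef1 was at -2.58 (exact 95% interval -2.78 to -2.40) in WT and -2.21 (-2.32 to -2.11) in the library labelled KO. Tcf7 was at -2.02 (-2.23 to -1.82) and -1.34 (-1.45 to -1.24), with intervals that did not overlap between the libraries. Id3 was at -2.06 and -2.05, Bach2 at -1.79 and -1.27, and Satb1 at -1.23 and -0.89. Dapl1 had the lowest ratios and the widest intervals, at -4.67 (-7.00 to -3.02) and -4.10 (-5.17 to -3.20). Zeb1 was at -0.39 and -0.26, and Id2 at 0.78 (0.62 to 0.94) and 0.63 (0.55 to 0.72). All 8 genes had the required 30 UMIs. Over 2-fold lower were 6 of 8 in WT, where 8.33% of 9083 genes were, and 5 of 8 in the library labelled KO, where 7.05% of 10664 genes were. Each count was 5 or 6 over the alternatives tried, so the counts do not set the libraries apart. With 2 UMIs required of a marker, Id3 in the library labelled KO came to -2.88. The median of all genes was -0.13 in WT and -0.12 in the library labelled KO.

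**Figure D2:**
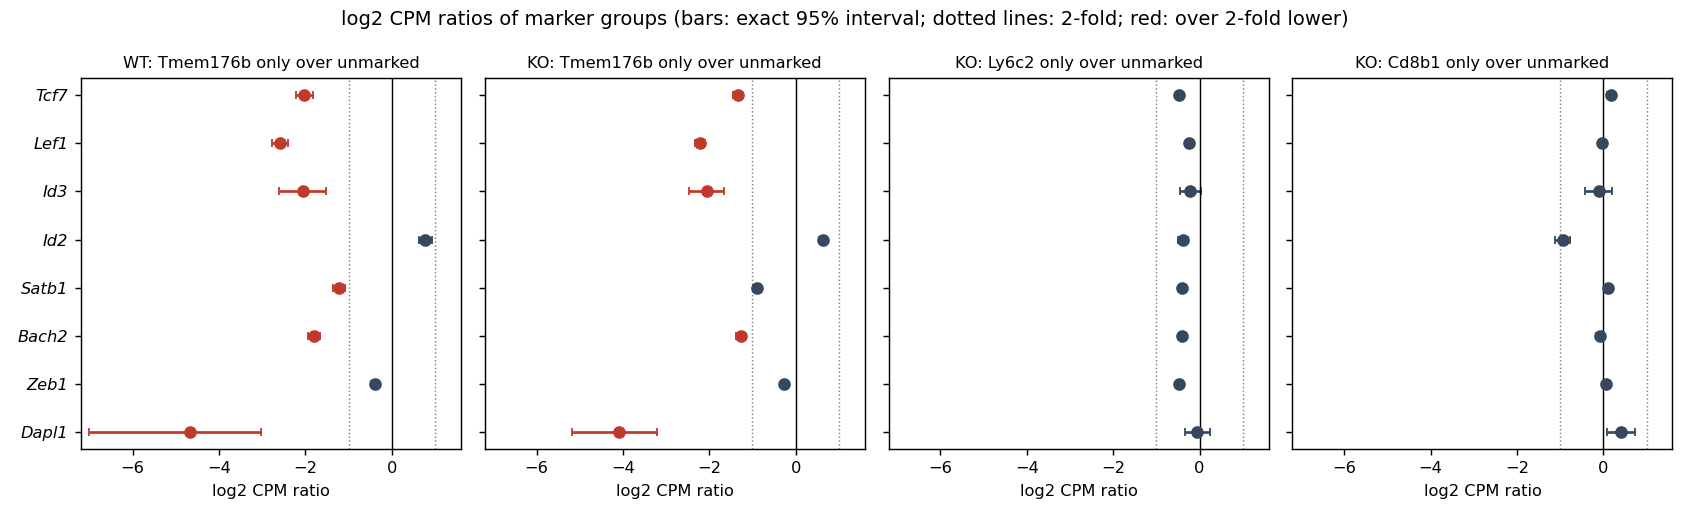
log2 CPM ratio (x axis) of each gene (y axis) for 4 pairs of marker groups, with bars for exact 95% intervals, dotted lines at 2-fold and red points over 2-fold lower. Red points appear only in the panels of Tmem176b only over unmarked cells (6 in WT, 5 in the library labelled KO), and the ratio nearest to the line elsewhere is that of Id2 in Cd8b1 only cells (-0.94).

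Other markers moved with these groups. The 6 myeloid markers summed to 180.5 CPM in WT Tmem176b only and 124 in unmarked cells, and to 155 and 115 in the library labelled KO, nearly all of it Cst3 (176 and 118, 153 and 110.2). Their defining Csf1r and Lyz2 stayed at or under 0.718 and 3.06 CPM in these groups. The 4 B cell markers summed to 12.0 to 19.2 CPM, with Ms4a1 at 0 in all of them. Low levels of both lists follow from the T cell rule, which left out cells with 3 or more UMIs of either list. The 4 αβ T cell markers summed to 670 and 1247 CPM in the WT groups and to 708 and 1442 in the library labelled KO, mostly Trbc2, while Trac was at 29.8 and 31.1, and 20.6 and 32.4. A Tmem176b UMI was also in 6 of 38 thinned WT and 2 of 15 thinned KO reference cells (15.8% and 13.3%), against 43.6% and 18.4% of T cells. In the library labelled KO the share in T cells was thus inside the interval of the reference cells (1.66 to 40.5%). Il17a, by contrast, was at 85.1 CPM in Tmem176b only cells of that library and at 4.62 in unmarked cells. Ly6c2 was in 11 of 38 and 3 of 15 reference cells (28.9% and 20.0%), against 17.9% of WT T cells. Whether the reference cells made Tmem176b or Ly6c2 RNA of their own was not tested, so these shares are no measure of free RNA. The part of free RNA in the grouping was not tested.

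Tcf7 and Lef1 were also lower the more Tmem176b UMIs a thinned cell held, which the grouping by presence alone does not show. In the library labelled KO, Lef1 was at 658 CPM in 4498 cells with 0 Tmem176b UMIs, 236 (206 to 269) with 1 UMI, 91.7 (71.9 to 115) with 2 or 3 and 55.1 (30.9 to 91.0) in 136 cells with 4 or more. Tcf7 was at 426, 204 (176 to 234), 171 (143 to 202) and 107 (71.4 to 153) in the same cells. WT Lef1 was at 402, 80.7 (60.3 to 106), 60.2 (43.4 to 81.3) and 53.8 (31.3 to 86.1), and its last 3 intervals overlapped. Tcf7 in WT was at 256, 87.0, 83.1 and 53.8, again with overlap from 1 UMI on. Among cells with 4 or more Tmem176b UMIs, Lef1 was thus as low in the library labelled KO as in WT within the intervals. Both intervals overlap those of Lef1 in the B cell or myeloid reference cells of the same library, given above. Lef1 there is therefore not told apart from free RNA, and equal expression is not shown. Bach2 in the library labelled KO was at 435, 271, 188 and 132 CPM, and Id2 at 221, 377, 420 and 426. Zeb1 in that library was at 595, 563, 526 and 456.

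**Figure D3:**
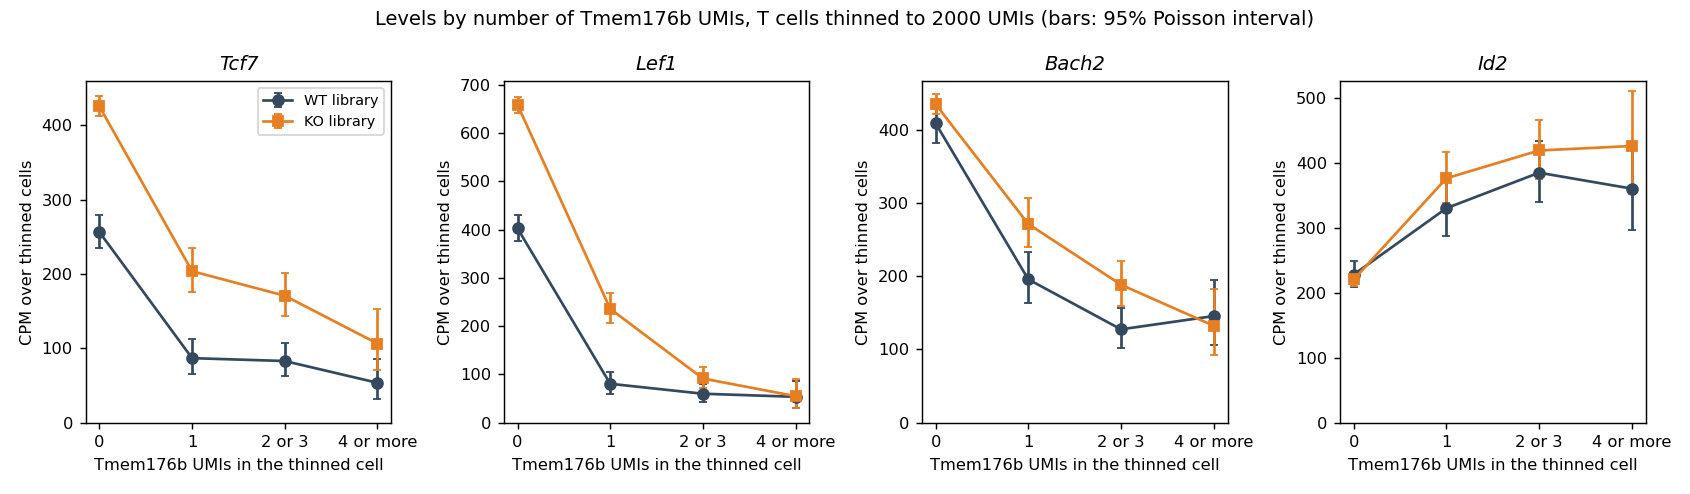
Levels of Tcf7, Lef1, Bach2 and Id2 (y axis, CPM) in T cells thinned to 2000 UMIs, by number of Tmem176b UMIs in the cell (x axis), with bars for 95% Poisson intervals. Lef1 in the library labelled KO (squares) comes down from 658 to 55.1 CPM and meets the WT value (circles, 53.8), while Id2 is higher from 1 UMI on. The intervals of these last Lef1 values overlap those of the B cell or myeloid reference cells of the same library.

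Grouped by the single γ variable gene a cell showed, WT Tcrg-V6 only cells (440) held the lowest levels of Tcf7, Lef1, Id3, Satb1, Bach2 and Dapl1 among the 10 receptor groups of at least 50 cells. Tcf7 was at 65.9 CPM (53.9 to 79.7) in them, 232 (208 to 259) in 374 WT Tcrg-V4 only cells and 386 (374 to 399.8) in 2008 Tcrg-V1 only cells of the library labelled KO. Lef1 was at 89.7, 277 and 543 CPM in the same groups. The log2 ratio of WT Tcrg-V6 over WT Tcrg-V4 only cells was -1.82 (-2.15 to -1.50) for Tcf7, -1.63 for Lef1, -2.60 for Id3, -1.13 for Satb1 and -1.14 for Bach2. It was 1.06 (0.85 to 1.27) for Id2 and -0.20 for Zeb1. Of the 7 genes with 30 UMIs or more, 5 were over 2-fold lower (4.98% of 7673 genes) and 1 was over 2-fold higher (5.34%). Dapl1 had too few UMIs. The marker genes differed between these groups too, with Tmem176b at 1079 and 248 CPM and Ly6c2 at 27.0 and 446, and their part in the ratios was not tested beyond the split given below. Tcrg-V1 only cells of the library labelled KO stood above WT Tcrg-V4 only cells by 0.74 (0.57 to 0.90) for Tcf7, 0.97 (0.82 to 1.12) for Lef1 and 1.91 (1.047 to 2.93) for Dapl1. Only Dapl1 was over 2-fold higher, as were 4.99% of 10038 genes. The receptor groups are not complete, since 859 WT and 2981 KO T cells showed no γ variable gene UMI.

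Within WT Tmem176b only cells, Tcf7 and other genes of the 8 differed between receptors beyond their intervals, and Lef1 did not. Tcf7 was at 51.1 CPM (40.0 to 64.4) in 386 WT Tcrg-V6 cells, 138 (108 to 174) in 150 WT Tcrg-V4 cells and 170.2 (153 to 188) in 488 Tcrg-V1 cells of the library labelled KO. Lef1 was at 63.2 (50.7 to 77.8), 69.1 (48.4 to 95.7) and 149 (133 to 166) in the same cells. The log2 ratio of WT Tcrg-V6 over WT Tcrg-V4 cells was -1.44 (-1.93 to -0.94) for Tcf7 and -0.13 (-0.70 to 0.47) for Lef1. It was -1.14 (-1.46 to -0.83) for Satb1, -0.83 (-1.17 to -0.49) for Bach2, 0.81 (0.53 to 1.11) for Id2 and -0.20 for Zeb1. Of 6 genes with enough UMIs, 2 were over 2-fold lower (2.51% of 6484 genes) and 0 higher (5.64%). Tcrg-V1 cells of the library labelled KO over WT Tcrg-V4 cells were at 1.11 (0.61 to 1.65) for Lef1 and 0.30 (-0.07 to 0.68) for Tcf7. Id3 was at -1.76 (-2.78 to -0.71) in this ratio, on 20 and 16 UMIs. Of 7 genes with enough UMIs, Lef1 was over 2-fold higher (6.63% of 7410 genes) and Id3 over 2-fold lower (2.96%). Receptor and library change together in this ratio. Tcrg-V4 only cells with Tmem176b in the library labelled KO (60 cells) held 209 CPM of Tcf7 (157 to 272) and 133 of Lef1 (92.5 to 185). Both intervals overlapped those of Tcrg-V1 cells of the same library. Its label names Vγ4 as lacking, so a Tcrg-V4 UMI there need not mark a Vγ4 chain. After thinning, a Tcf7 UMI was in 8.70% (6.02 to 12.1) of the WT Tcrg-V6 cells with Tmem176b. That interval takes in the 7.89% that 0 of 38 reference cells allow, so this share is not set above free RNA. Id2 was at 408 CPM in the WT Tcrg-V6, 232 in the WT Tcrg-V4 and 422 in the Tcrg-V1 cells. These splits by both receptor and marker were added after the data had been seen.

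**Figure D4:**
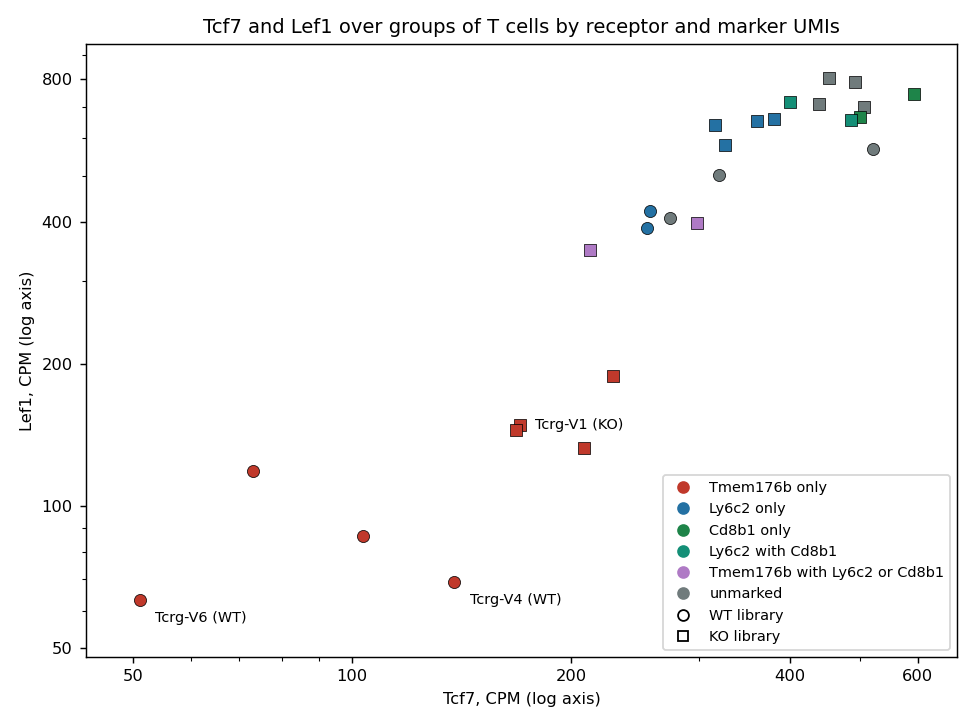
CPM of Tcf7 (x axis, log scale) and Lef1 (y axis, log scale) in the 27 groups of T cells by receptor and marker UMIs that held at least 50 cells, with circles for WT, squares for the library labelled KO and colours for the marker group. Tmem176b only groups (red) lie low on both axes, and among them the WT Tcrg-V4 group lies right of the WT Tcrg-V6 group (138 against 51.1 CPM of Tcf7) at a like height (69.1 and 63.2 CPM of Lef1).

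Compared within one marker group, the library labelled KO held more Tcf7, Lef1 and Satb1 than WT in each of 3 groups, with every interval above 0. For Tcf7 the log2 ratio was 1.22 (1.026 to 1.41) in Tmem176b only, 0.38 (0.22 to 0.55) in Ly6c2 only and 0.54 (0.42 to 0.66) in unmarked cells. For Lef1 it was 0.94 (0.74 to 1.14), 0.59 (0.46 to 0.72) and 0.57 (0.47 to 0.66). In Tmem176b only cells Tcf7 alone was over 2-fold higher, of 7 genes with enough UMIs (3.72% of 9760 genes were). Zeb1 was at -0.12, 0.01 and -0.25 and Bach2 at 0.26, 0.01 and -0.26. The intervals of both took in 0 in Ly6c2 only cells and left it out in the other groups. Id3 was at -0.04, 0.36 and -0.05, and its intervals all reached 0. Dapl1 was at 0.06 (-0.43 to 0.57) in Ly6c2 only and 0.66 (0.20 to 1.155) in unmarked cells, and had too few UMIs in Tmem176b only cells. Satb1 was at 0.51 (0.38 to 0.63), 0.17 (0.04 to 0.31) and 0.17 (0.07 to 0.27). Id2 was above 0 in all 3 groups (0.09, 0.14 and 0.24), with an interval above 0 in unmarked cells alone. Il17a also differed, at 442 CPM in WT and 85.1 in KO Tmem176b only cells, and at 136 and 4.62 in unmarked cells, and its part in these ratios was not tested. These values compare 2 libraries and not the conditions, and the Tmem176b only cells of WT and of the library labelled KO differ in receptor as given above.

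Among the other marker groups, Ly6c2 only cells held slightly less of most of the genes than unmarked cells. In the library labelled KO the ratios over unmarked cells ran from -0.48 (Zeb1, -0.55 to -0.41) to -0.05 (Dapl1, -0.34 to 0.23), and in WT from -0.73 (Zeb1) to 0.55 (Dapl1, -0.08 to 1.19). Cd8b1 only cells were closer to unmarked cells for Tcf7 (0.17), Lef1 (-0.02), Bach2 (-0.07) and Zeb1 (0.06), and lower for Id2 (-0.94, -1.11 to -0.78). Cells with both Ly6c2 and Cd8b1 UMIs had Id2 at -1.055 (-1.33 to -0.79) and Dapl1 at 0.72 (0.28 to 1.14). Il17a was under 1 CPM in Ly6c2 only and Cd8b1 only cells of the library labelled KO (0.213 and 0.399) and at 1.39 in WT Ly6c2 only cells.

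Beside the 8 genes, 6 lists of related genes were examined, with counts of those over 2-fold lower or higher in Tmem176b only against unmarked cells. Over 2-fold higher were 5.27% of all genes tested in WT and 6.5% in the library labelled KO. Of 12 T cell factor and LEF co-factors and targets, 9 were tested in WT and 11 in the library labelled KO. Tcf7l2, a paralog of Tcf7, was at -2.78 and -1.38, Bcl9l, a β-catenin co-factor, at -1.24 and -1.34, and Bcl9, its relative, at -1.56 in WT and -0.73 in the library labelled KO. Thus 3 and 2 were over 2-fold lower, and Tle2, a co-repressor, was over 2-fold higher in the library labelled KO (1.52). Axin2, a feedback target of β-catenin, was at 0.59 and 0.64, and Ctnnb1, which encodes β-catenin, at -0.03 and 0.07. Of 5 E protein and Id genes 3 were tested: Tcf12 was at -1.31 and -0.92 and Tcf4 at -2.63 and -1.53, so that 2 in WT and 1 in the library labelled KO were over 2-fold lower. Tcf3, another E protein, was at -0.80 and -0.62.

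In the list of 7 BACH and ZEB kin and counterparts, Prdm1, the repressor opposed to Bach2 in many lymphocytes, was at 1.91 and 1.54 on 40 and 32 UMIs in Tmem176b only cells. Zeb2 was at -0.20 in WT and -1.29 in the library labelled KO, and Maff, a small Maf factor, at 0.51 and 1.75. The list held 1 gene over 2-fold higher and 0 lower in WT, and 3 and 1 in the library labelled KO. Of 10 quiescence and naive T cell factors, 5 and 4 were over 2-fold lower and 0 higher. Myb led them at -3.18 and -2.06, Bcl6 was at -2.03 and -1.59, Foxp1 at -1.56 and -1.44, and Klf2, which drives genes of recirculation, at -0.9975 and -1.78. Foxo1, which acts upstream of Klf2, was at 0.01 and 0.34.

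Of 6 surface genes of naive or memory T cells 5 were tested in WT and 6 in the library labelled KO, and 4 in each were over 2-fold lower. Slamf6 was at -3.67 and -2.18, the lymph node homing receptor Ccr7 at -2.63 and -2.19, the egress receptor S1pr1 at -1.26 and -1.20, and Il7r, the IL-7 receptor, at 0.66 and 0.76. Cd27 was at -1.98 in WT and -0.68 in the library labelled KO, where Xcl1, a chemokine on the same list, was at -1.08. Of 7 effector counterparts, 4 in each library were over 2-fold higher. Blk, a kinase of IL-17-type γδ T cells, was at 1.81 and 4.80, Sox13 at 1.27 and 3.03, Maf at 1.20 and 2.56, and Zbtb16 at 1.23 and 1.29. Eomes, a factor of type 1 cells, was over 2-fold lower (-2.03 and -3.17). The list medians were 1.20 and 1.29 for the effector counterparts and -1.033 and -0.82 for the quiescence factors, beside -0.13 and -0.12 over all genes.

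Cells with a Tcf7 UMI held a Lef1 UMI more often than cells without one. In thinned WT T cells the share was 48.3% (43.6 to 52.9) of the 464 cells with Tcf7 and 23.7% (21.5 to 25.9) of the other 1437, an odds ratio of 3.01. In the library labelled KO it was 67.8% (66.0 to 69.7) and 47.0% (45.3 to 48.8), an odds ratio of 2.38. Within marker groups the odds ratio was 1.90 in WT Tmem176b only, 2.02 in Ly6c2 only and 2.73 in unmarked cells. In the library labelled KO it was 3.41 in Tmem176b only, 1.59 in Ly6c2 only, 1.89 in unmarked and 1.37 in Cd8b1 only cells, and 0.844 in the 190 cells with Ly6c2 and Cd8b1 UMIs. Both UMIs were found in 2.54% (1.64 to 3.76) of WT Tmem176b only and 21.3% (17.8 to 25.1) of unmarked cells, and in 7.96% (6.44 to 9.71) and 38.6% (36.6 to 40.6) of those in the library labelled KO. The highest share was 43.6% (39.6 to 47.5), in Cd8b1 only cells.

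Over the 28 pairs of the 8 genes, the odds ratio of co-detection was above 1 in 20 pairs in WT and 18 in the library labelled KO. All 7 pairs with Id2 were below 1 in both libraries, from 0.420 (Id2 and Dapl1) to 0.848 (Id2 and Satb1) in WT, and from 0.656 (Lef1 and Id2) to 0.879 (Id2 and Satb1) in the library labelled KO. Within marker groups this held less widely, with 3 of 7 below 1 in WT Ly6c2 only and in KO Cd8b1 only cells, 2 in KO cells with Ly6c2 and Cd8b1, and 5 or 6 in the others. In unthinned cells, where depth differs from cell to cell, 5 of these 7 were above 1 in the library labelled KO. At 1000 UMIs per cell, Id3 with Id2 came to 1.157 and Id2 with Dapl1 to 1.078 in WT. Lef1 with Bach2 was at 2.64 and 1.73, Tcf7 with Id3 at 3.004 and 1.53, and Lef1 with Id3 at 1.79 and 2.33. Pairs with Zeb1 stayed near 1 for Tcf7 (1.08 and 0.999) and Lef1 (1.09 and 1.036). Within unmarked cells of the library labelled KO the median odds ratio of the 28 pairs was 1.003, against 1.14 over its T cells, and in WT unmarked cells it was 1.27 against 1.38. A thinned cell held a UMI of a median of 2 of the 8 genes among Tmem176b only cells of either library, 3 among unmarked cells and 4 among Cd8b1 only cells.

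**Figure D5:**
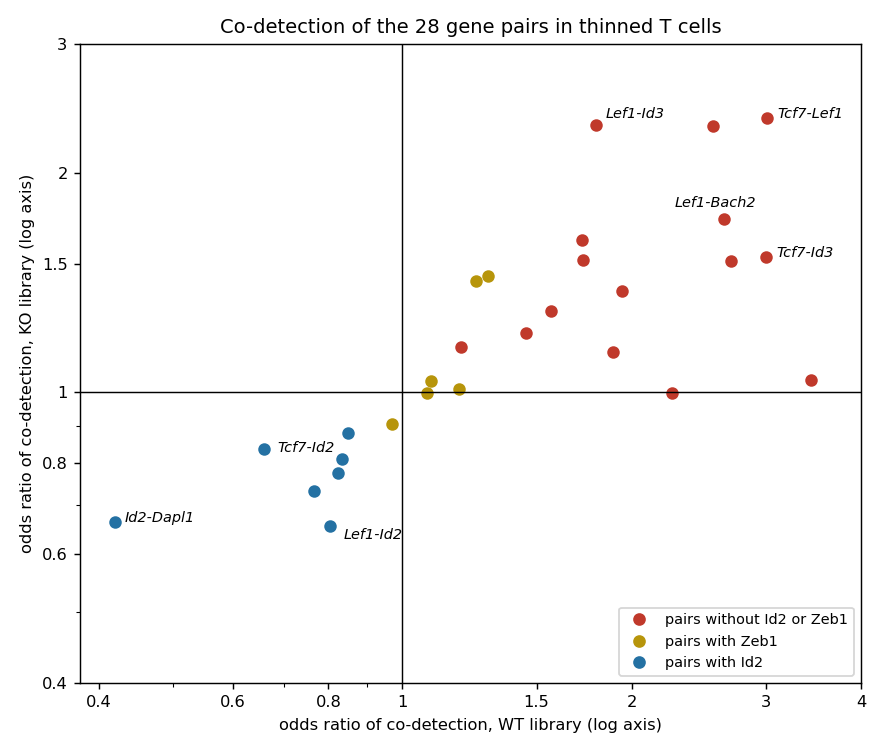
Odds ratio of co-detection of each of the 28 gene pairs in thinned T cells of the WT library (x axis, log scale) and of the library labelled KO (y axis, log scale), with lines at 1. The 7 pairs with Id2 (blue) lie below 1 on both axes, and Tcf7 with Lef1 lies at 3.01 and 2.38.

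The genes whose levels most resembled each of the 8 were ranked by Pearson's r of log2(CPM + 10) over the 27 groups by receptor and marker UMIs, among 8743 genes with at least 200 UMIs in T cells. These groups share 2 libraries and the group totals, so r is a description. For Tcf7 they were Dpp4 (0.958), Prkcq (0.957) and Rras2 (0.955), and for Lef1 Cblb (0.979), Actn1 (0.974) and Arhgef18 (0.974). For Satb1 they were Rras2 (0.937), Thada (0.919) and S1pr1 (0.916), and for Bach2 Arhgap15 (0.959), Aff3 (0.95) and Foxp1 (0.947). Dapl1 was closest to BE692007 (0.959), Ms4a6b (0.933) and Gimap3 (0.918), and Id3 to Trbc2 (0.860), Pdcd4 (0.853) and Acsl3 (0.843). Id2 was closest to Prr13 (0.901), Ucp2 (0.900) and Etfb (0.899), and those near Zeb1 included Pde4b (0.843) and Cenpa (0.792). Between Tcf7 and Lef1 themselves r was 0.922.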

How the data were processed

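The authors made the deposited UMI counts per gene and cell barcode with Cell Ranger on mm10 (GRCm38); the processing notes give version 7.0, the file headers 7.0.0 and the study's methods an older release. The labels name a 3′ protocol and the methods a V(D)J kit. The sources used here do not give strand, intron counting or the annotation release, so intronic reads may add to the counts of long genes.

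The 8 genes, the gene lists and the markers were chosen with earlier results of these data known. The study's filter (over 200 and under 4000 genes, under 10% mitochondrial UMIs) was applied to the 2520 and 6688 barcodes (9173997 and 26436826 UMIs), and it left more cells than the study reports. The T cell rule then left out 396 WT and 492 KO cells, of which 172 and 202 had no T cell marker UMI and 168 and 259 had a T cell marker UMI beside at least 3 B cell or myeloid UMIs. No doublets were removed; leaving out the 5% highest Scrublet scores was an alternative. Sums of UMIs per group were given as CPM with Poisson intervals, and compared as log2 ratios with exact conditional intervals for genes with at least 30 UMIs over both groups of at least 50 cells. For shares, each cell was thinned to 2000 UMIs; 208 WT and 627 KO T cells were too shallow for this and dropped; intervals are Clopper-Pearson. Named were the 8 genes, the grouping and marker genes, the 2 genes of each list with the largest log2 ratio in a comparison and others a result turns on, and the 3 genes most like each of the 8, of which 1 is not reported here. Python 3.11.15, numpy 2.4.6, scipy 1.17.1, pandas 2.3.3, scanpy 1.11.5 and matplotlib 3.10.9 were used. Ratios, intervals and thinning were tested on simulated data. RefSeq windows and GENCODE positions are of GRCm38.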

Additional observations from a re-analysis of the deposited data

How the results depend on the processing

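No paired analysis was possible because the WT and KO groups hold a single library each. Over 13 alternatives, of which 2 (leaving out Lyz2 as a marker, or the barcodes both libraries hold) were chosen after seeing the data, 916 of 1009 log2 ratios, 502 of 560 odds ratios, 59 of 80 shares and 246 of 258 counts of genes over 2-fold moved by less than their counting error. The log2 ratio of Tmem176b only over unmarked cells ranged from -2.20 to -1.85 (Tcf7) and -2.74 to -2.41 (Lef1) in WT, and from -1.60 to -1.29 and -2.71 to -2.17 in the library labelled KO. With no removal of non-T cells, Satb1 in unmarked cells of the library labelled KO over WT came to -0.00553. With groups set on thinned counts, Bach2 in that comparison came to 0.02557, and the shares of unmarked KO cells with Tcf7 and Lef1 to 49.79% and 64.23%. With the mean of the cells' CPM, Satb1 over unmarked KO cells came to -0.1618 in Cd8b1 only cells and -0.08406 in cells with Ly6c2 and Cd8b1, and the genes over 2-fold higher to 0 for Tcrg-V6 over Tcrg-V4 and 2 for Tcrg-V1 over Tcrg-V4. The latter count was also 2 without the barcodes both libraries hold; Lef1 lies near 2-fold there. With 2 UMIs required of a marker, KO Tmem176b only shares were 19.71% (Tcf7) and 13.46% (Lef1), and without the highest doublet scores the latter was 15.92%. Shares and odds ratios followed depth. At 1000 UMIs, shares in Tmem176b only and unmarked cells were 6.74% and 22.63% (Tcf7) and 6.539% and 32.75% (Lef1) in WT, and 14.9% and 33.9%, and 10.85% and 47.02%, in the library labelled KO, where the odds ratio of Tcf7 and Lef1 was 1.749. Unthinned, they were 19.86%, 43.25%, 19.16% and 51.84% in WT and 37.88%, 64.05%, 27.47% and 75.85% in the library labelled KO, with odds ratios of 4.338 and 3.55. Unthinned KO odds ratios with Id2 turned to 1.048 (Tcf7), 1.042 (Id3), 1.24 (Satb1), 1.036 (Bach2) and 1.022 (Zeb1). Except for these effects of depth, the cause was not tested. No alternative gives replicate error.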

Other observations

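In T cells grouped by an Il17a or Il17f UMI, a split added after the data had been seen, Tcf7, Lef1, Id3, Satb1, Bach2 and Dapl1 were lower and Id2 higher in cells with such a UMI in both libraries, whereas Zeb1 in the library labelled KO was higher, opposite to its direction under Tmem176b. Tcf7 was at 78.1 CPM (66.4 to 91.4) in the 531 WT cells with such a UMI and 235 (223 to 248) in the 1578 without, and at 122 (98.2 to 149) in 164 and 391 (383 to 399) in 5978 cells of the library labelled KO. Lef1 was at 83.2 and 344 CPM in WT, and at 103 (81.7 to 129) and 584 in the library labelled KO. Satb1 was at 243 and 375 CPM in WT and at 320.5 and 487 in the library labelled KO, and Bach2 at 199 and 402, and 197 and 418. Id3 was at 11.02 and 33.3 CPM in WT and at 10.6 (4.57 to 20.9) and 38.0 in the library labelled KO. Id2 was at 332 and 267 CPM in WT and at 351 and 259 in the library labelled KO. Zeb1 was at 635 and 652 CPM in WT, and at 734 (674 to 797) and 612 (602 to 622) in the library labelled KO. Dapl1 had 6 and 3 UMIs in the cells with an Il17a or Il17f UMI.

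Among WT cells sorted as Vγ1-negative, where a Tcrg-V1 UMI need not mark a Vγ1 chain, were 77 Tcrg-V1 only T cells. Their Tcf7 was at 304 CPM (244 to 374) and their Lef1 at 513 (435 to 602), against 386 and 543 in Tcrg-V1 only cells of the library labelled KO. Bach2 was at 621 CPM (535 to 718) in these WT cells and 380.3 (367 to 393) in those of the library labelled KO. The 332 Tcrg-V4 only cells of the library labelled KO held 361 CPM of Tcf7 (329.5 to 395) and 607 of Lef1 (566 to 650.2), against 232 and 277 in the 374 WT ones.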
